A study of Mus musculus with 4 samples.

Results

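The 78 transcripts that encode mitochondrial ribosomal proteins (Mrp transcripts) were followed in anti-YTHDF2 RNA immunoprecipitation (RIP) and input RNA of newborn mouse retina. They were chosen by name only, as every gene of the count table with a symbol of the form Mrpl or Mrps, a number and, for some, a letter from a to c. The table held 52550 genes, and all 78 members passed the filter on low counts. Retinas of wild-type C57BL/6 mice at postnatal day 0 were dissociated with papain, and RNA was taken from the lysate before the pulldown (input, 2 libraries) and after pulldown with a YTHDF2 antibody (RIP, 2 libraries). All 4 libraries come from the same untreated genotype and age, so that the comparison is between 2 RNA fractions of 1 tissue. A control IgG pulldown is named in the study's methods but was not analysed here, so recovery through YTHDF2 and recovery by antibody or beads alone cannot be told apart. The methods call the replicates biological, without saying how many pups each held.

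Mitochondria carry their own ribosome, the mitoribosome, which makes the few proteins that the mitochondrial genome encodes, all of them parts of the respiratory chain complexes. Its RNA comes from the mitochondrial genome, but its proteins are encoded in the nucleus, translated in the cytosol and imported. Some of them descend from bacterial ribosomal proteins, and others joined the ribosome in the mitochondrial lineage. The large subunit (mostly Mrpl) joins amino acids into a chain, and the small subunit (mostly Mrps) holds the mRNA. YTHDF2 is a cytosolic reader of N6-methyladenosine (m6A), a mark on mRNA that is often placed within the letters GGACT, and it is known for speeding the decay of the mRNAs it binds. The retina is known for its high use of oxygen.

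Most Mrp transcripts are short, and the coding sequences of Mrpl33 and Mrps21, among the shortest and among the 3 members with the lowest RIP to input ratios, are shown to make this concrete. Capitals mark the start and stop codons. Mrpl33 was spliced from chr5:31614001-31622426 on the plus strand and has 65 codons before the stop, and Mrps21 from chr3:95862752-95870576 on the minus strand with 87 (GRCm38, GENCODE M21).
Mrpl33: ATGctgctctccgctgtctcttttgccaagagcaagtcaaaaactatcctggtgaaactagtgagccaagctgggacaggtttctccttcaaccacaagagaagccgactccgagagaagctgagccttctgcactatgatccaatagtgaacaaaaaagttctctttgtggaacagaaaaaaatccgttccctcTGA
Mrps21: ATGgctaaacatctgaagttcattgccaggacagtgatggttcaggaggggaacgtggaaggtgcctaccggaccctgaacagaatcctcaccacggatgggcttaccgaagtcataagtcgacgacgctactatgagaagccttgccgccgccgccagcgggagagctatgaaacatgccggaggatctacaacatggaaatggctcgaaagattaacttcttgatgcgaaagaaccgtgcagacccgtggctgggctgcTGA
The whole principal transcript of Mrpl33, 478 nt, held no GGACT, and that of Mrps21, 488 nt, held 1, before the start codon.

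The GGACT matches of members at both ends of the range of ratios are set side by side because YTHDF2 is a reader of m6A. Each line gives a stretch of the mRNA strand with the match in capitals. The first 4 come from members among the 8 with the lowest ratios and the last 3 from members among the 8 with the highest.
Mrpl20, chr4:155808689-155808709, plus strand, 3′ UTR: gaccaaaaGGACTgtcaccag
Mrps21, chr3:95871501-95871519, minus strand, 5′ UTR: gtcgcgGGACTccgtagct
Mrps36, chr13:100736192-100736212, minus strand, 3′ UTR: acaataaaGGACTtccacaat
Mrpl11, chr19:4964845-4964865, plus strand, 3′ UTR: gagccaaaGGACTtcatggca
Mrpl44, chr1:79779546-79779566, plus strand, coding: atcccatgGGACTactcgtag
Mrpl9, chr3:94444647-94444667, plus strand, coding: tttctcagGGACTggcagtgt
Mrpl50, chr4:49512706-49512726, minus strand, 3′ UTR: atctcttgGGACTaacggaga
The 8 members with the lowest ratios held 12 such matches in 10124 nt of principal transcript, or 1.185 per kb, and the 8 with the highest held 26 in 25409 nt, or 1.023 per kb. At least 1 match was found in 6 of the 8 lowest and in all of the 8 highest. A match says nothing of whether the site was methylated, which these libraries do not measure.

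The libraries held 39499994 and 36236531 counts (input) and 19530226 and 24903212 counts (RIP). Much of this fell on 2 loci with ribosomal RNA sequence, which took 55.0% to 55.5% of the input and 85.3% to 87.8% of the RIP counts. Transcripts of the mitochondrial genome, the mitoribosome's own substrates and its rRNA among them, made up 18.6% and 19.4% of the inputs, and in the RIP 0.578% and 0.522%. Protein-coding genes kept 8.37% to 11.5%, which sets the depth behind the values below, with 22 to 1265 counts a member in the inputs and 9 to 178 in the RIP libraries. Markers of progenitors, ganglion cells, photoreceptor precursors and amacrine cells were all present in the inputs. The 3 markers of pigment epithelium and the 3 of lens were at 0 in all 4 libraries. Of the 3 endothelial markers, Kdr had 29.9 and 30.2 CPM (counts scaled to a common library size) before the pulldown and 63.3 and 65 CPM after it, Cldn5 had 3.03 and 1.66 against 1.94 and 1.91 CPM, and Pecam1 had 0.21 and 0.204 CPM against 0 in both RIP libraries. Their sum thus followed Kdr, which did not pass the test (edgeR adjusted p = 0.0605). The 3 microglia markers summed to 2.55 and 1.34 CPM in the inputs and 2.5 and 4.07 CPM in the RIP. The 3 red blood cell markers summed to 0.57 and 0.408 CPM against 0.119 and 0.208 CPM. The part of RNA from these other cells and of the ribosomal RNA share in the results was not tested. From marker levels in the inputs, the number of cells of a type and the RNA per cell cannot be told apart.

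Mrp transcripts were scarcer in the RIP than in the input almost throughout. They took 0.390% of the protein-coding counts in input replicate 1 (95% Wilson interval 0.384% to 0.397%) and 0.302% in input replicate 2 (0.296% to 0.307%). In the RIP they took 0.198% (0.192% to 0.204%) in replicate 1 and 0.208% (0.202% to 0.214%) in replicate 2. Both RIP shares thus lay below both input shares, although the inputs themselves differed by more than their intervals, which cover counting error only. The median level of the 78 members was 5.22 and 3.83 CPM in the inputs, scaled by TMM (trimmed mean of M values), and 1.88 and 1.98 CPM in the RIP libraries.

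**Figure D1:**
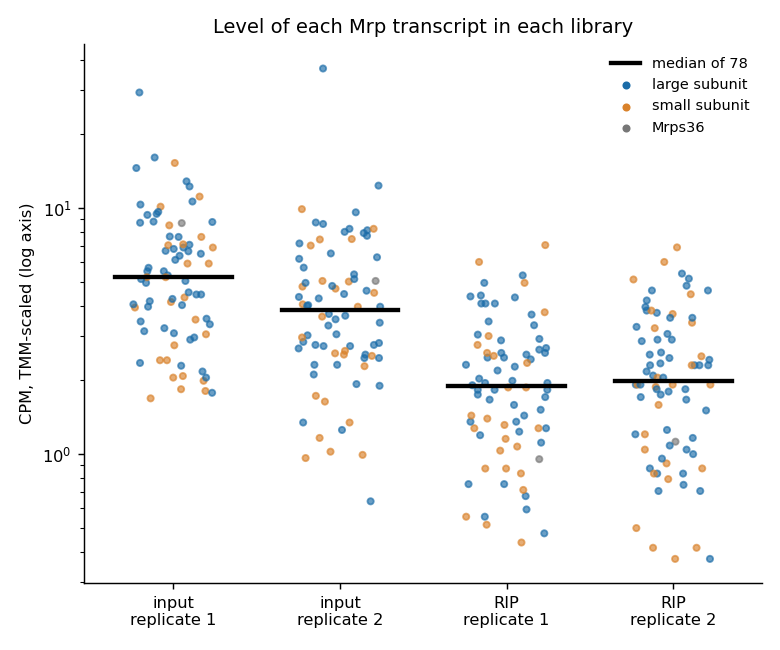
Level of each of the 78 Mrp transcripts (points, colored by subunit) in each library, as TMM-scaled CPM on a log axis, with the horizontal spread of points for legibility only. The black bars are medians, at 5.22 and 3.83 CPM in the inputs and 1.88 and 1.98 CPM in the RIP.

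The log2 fold changes, RIP over input, had a median of -1.20 over the members, against -0.052 over all 13632 tested genes. They ran from -3.23 to 0.94 with an SD of 0.83, wider than the median standard error (SE) of 0.44, and 75 of 78 lay below 0. In 63 members both RIP libraries were below both inputs in CPM, as they were in 31.3% of all tested genes. In 1 member, Mrps27, both were above, and in 14 the groups overlapped. Of all 13632 tested genes, both were above in 4032 and both below in 4266, and the groups overlapped in the rest. By edgeR's quasi-likelihood test with Benjamini-Hochberg adjustment over all tested genes, 26 members (33.3%) were lower in the RIP at an adjusted p below 0.05, where 9.78% of all genes were. None was higher, where 3.48% of all genes were, and none was higher at an unadjusted p below 0.05 or by DESeq2 either. By the looser rule of a log2 fold change of -1 or lower with an unadjusted p below 0.05, 41 members (52.6%) were depleted against 17.2% of all genes. By its mirror at 1 or higher no member was enriched, against 9.43% of all genes. The rule that chose the members used none of these values, but the members were chosen with earlier results of these data known.

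The count of 26 rested on both RIP libraries. Without RIP replicate 1 all of these calls were lost, and without RIP replicate 2 as well. Over all genes, too, those fits called just 0.756% and 1.20% lower. Without input replicate 1 the count was 32, where 18.2% of all genes were called lower, and without input replicate 2 it was 53, where 19.8% were, with Mrps18a (-1.14), Mrps30 (-0.92) and Mrpl58 (-1.18) among those gained there. The median of the members relative to that of all tested genes, -1.15 in the full fit, ran from -0.89 to -1.47 over these 4 fits. Scaling by library size alone moved the median of all genes to 0.27, left 67 members below 0 and called 15 lower, against 7.32% of all genes. For 1 member taken alone, permuting 2 libraries against 2 exactly allows no p under 0.333, so that single members rest on the fit over all genes.

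**Figure D2:**
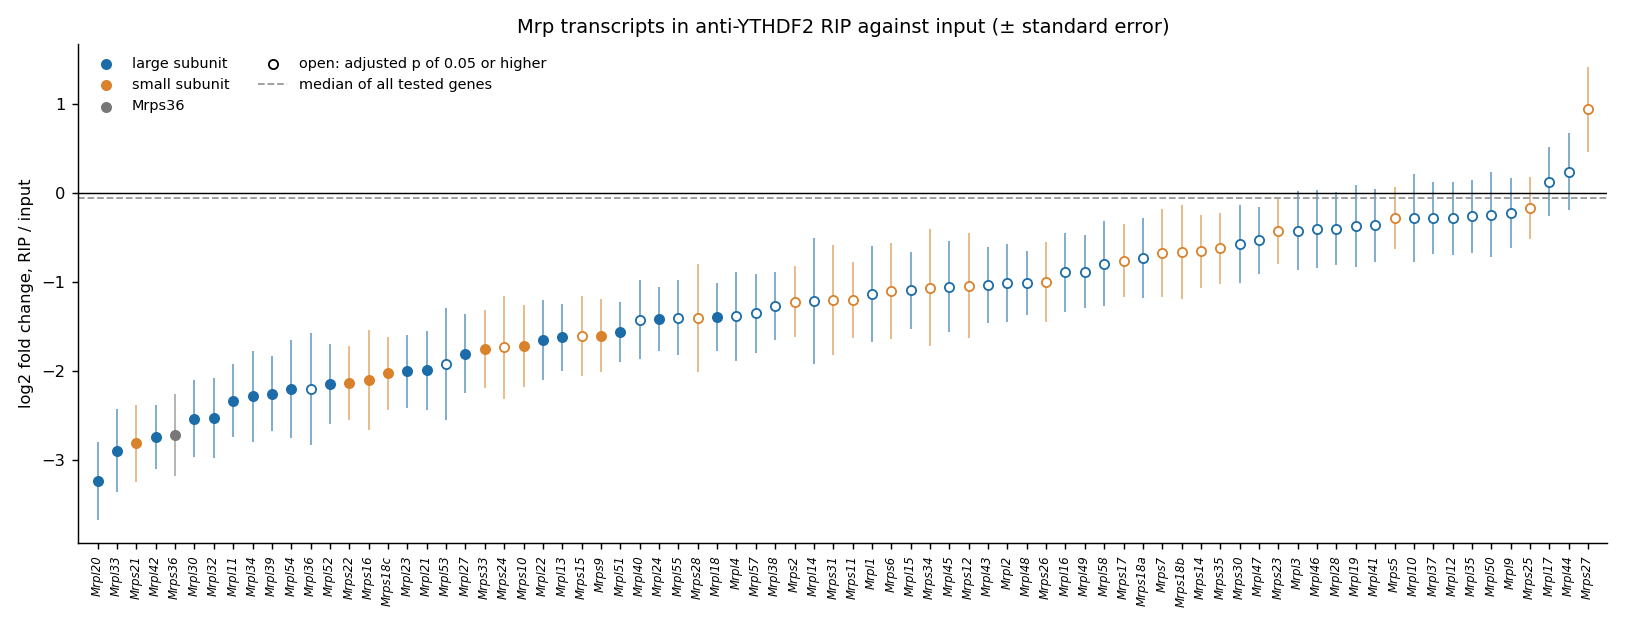
Log2 fold change of each member, RIP over input, with its standard error (2 RIP against 2 input libraries), ordered from lowest to highest and colored by subunit. Filled points are the 26 members with an adjusted p below 0.05, all of them below 0, and Mrps27 stands alone at 0.94.

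Both subunits shared this. Where 9.78% of all tested genes were lower, 18 of 51 large subunit members were (35.3%), with a median log2 fold change of -1.21. Of 26 small subunit members 7 were lower (26.9%), with a median of -1.15. The remaining member, Mrps36, belongs to neither and is described with the exceptions to the naming. Members classed as having a direct bacterial counterpart had a median of -1.38 with 18 of 45 lower (40.0%). The rest had a median of -1.02 with 7 of 32 lower (21.9%), against the same 9.78% of all tested genes. The rest include Mrps18a and Mrps18b, paralogs of a bacterial type protein that take places of their own in the mitoribosome. By subunit and ancestry together, the medians were -1.39 for 30 large bacterial, -1.03 for 21 large mitochondrial, -1.22 for 15 small bacterial and -1.0 for 11 small mitochondrial members. These differences between classes are smaller than the SD of single members and were not tested.

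Among the large subunit proteins of bacterial descent, Mrpl20 had the lowest ratio of all members. In bacteria its counterpart binds the large rRNA early in assembly. Its level was 8.78 and 9.58 CPM in the inputs and 0.753 and 1.20 CPM in the RIP libraries, from 293 and 329 counts and from 19 and 29 counts. The RIP mean was thus 10.7% of the input mean, with a log2 fold change of -3.23 (SE 0.44, edgeR adjusted p = 0.00282). Mrpl33, one of the smallest proteins of the ribosome, had 9.44 and 7.98 CPM in the inputs and 1.58 and 0.748 CPM in the RIP. Its log2 fold change was -2.89 (SE 0.47, edgeR adjusted p = 0.00661). Mrpl30 followed with 10.6 and 7.89 CPM against 1.94 and 1.25 CPM, a log2 fold change of -2.53 (SE 0.43, edgeR adjusted p = 0.00744). In all 3 the groups stood far apart.

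Mrpl32 and Mrpl11 reached like ratios with principal transcripts of 3013 and 3045 nt, most of it 3′ UTR. Mrpl32 is known for being trimmed by the m-AAA protease before it enters the ribosome. It had 9.35 and 7.16 CPM in the inputs and 1.82 and 1.04 CPM in the RIP, a log2 fold change of -2.52 (SE 0.45, edgeR adjusted p = 0.00905). Mrpl11, at the base of the stalk where translation factors dock, had 14.5 and 8.59 CPM against 2.18 and 2.41 CPM. Its log2 fold change was -2.33 (SE 0.41, edgeR adjusted p = 0.00927). Which isoform the cells held was not measured, so these lengths are those of the annotation.

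Mrpl34, whose bacterial counterpart is a small protein of the large subunit, differed widely between the inputs, at 16.0 and 6.20 CPM. Its RIP values of 1.98 and 2.58 CPM lay below both, and its log2 fold change was -2.28 (SE 0.51, edgeR adjusted p = 0.0232). Of the other large subunit proteins, Mrpl42 had the lowest ratio and the most counts of any member, 982 and 1265 in the inputs with 134 and 111 left in the RIP. Its level was 29.4 and 36.8 CPM in the inputs and 5.31 and 4.61 CPM in the RIP, a log2 fold change of -2.74 (SE 0.36, edgeR adjusted p = 0.00257). Mrpl54 had 7.61 and 3.03 CPM against 1.43 and 0.872 CPM, a log2 fold change of -2.20 (SE 0.55, edgeR adjusted p = 0.0342). As in Mrpl34, input replicate 2 was the lower input by far, and without input replicate 1 the log2 fold changes of Mrpl34 and Mrpl54 were -1.44 and -1.39.

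In the small subunit, Mrps21 was the lowest. It had 11.1 and 9.87 CPM in the inputs and 1.07 and 1.91 CPM in the RIP, with a log2 fold change of -2.81 (SE 0.43, edgeR adjusted p = 0.00514). Mrps10, whose bacterial counterpart sits in the head of the small subunit, had 3.06 and 2.56 CPM against 0.871 and 0.831 CPM. Its log2 fold change was -1.72 (SE 0.46, edgeR adjusted p = 0.0418), near the limit.

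The 3 Mrps18 paralogs descend from 1 bacterial protein and take 3 different places in the mitoribosome. Mrps18c, the closest to the bacterial form, had 4.32 and 4.78 CPM in the inputs and 1.03 and 1.20 CPM in the RIP, a log2 fold change of -2.02 (SE 0.41, edgeR adjusted p = 0.0162). Mrps18a, which sits in the large subunit despite its name, had 5.52 and 2.82 CPM against 2.69 and 2.33 CPM, a log2 fold change of -0.73 (SE 0.45, edgeR adjusted p = 0.312). Mrps18b, in the small subunit, had 1.83 and 2.5 CPM against 0.832 and 1.91 CPM, a log2 fold change of -0.66 (SE 0.53, edgeR adjusted p = 0.449). Mrps18c was called lower and the other paralogs were not, and the differences among the paralogs were not tested. The principal transcript of Mrps18c is 638 nt long, that of Mrps18a 884 nt and that of Mrps18b 1079 nt. With trends on length and GC content taken out, as described with the lengths, Mrps18c, Mrps18a and Mrps18b stood at 0.21, 0.70 and 0.53 and none was called.

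Other names also mislead. Mrps36 is now known as a subunit of the alpha-ketoglutarate dehydrogenase complex of the citric acid cycle, not of the ribosome. It nonetheless had a ratio among the lowest, from 8.66 and 5.04 CPM to 0.951 and 1.12 CPM, a log2 fold change of -2.72 (SE 0.46, edgeR adjusted p = 0.00726). Mrps30 is a large subunit protein, at 3.96 and 2.30 CPM in the inputs and 2.30 and 1.91 CPM in the RIP, with a log2 fold change of -0.57 (SE 0.44, edgeR adjusted p = 0.427). Mrpl58 is a peptidyl-tRNA hydrolase built into the large subunit, which frees chains from stalled ribosomes. It had 3.54 and 1.89 CPM against 1.35 and 1.79 CPM, a log2 fold change of -0.79 (SE 0.48, edgeR adjusted p = 0.307).

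At the other end, 8 members ranged from -0.28 to 0.94, and none of them passed the test in either direction. Mrps27, a small subunit protein with RNA-binding pentatricopeptide repeats, was the only member with both RIP values, 2.77 and 2.29 CPM, above both inputs, 1.68 and 0.961 CPM. Its counts were few, 56 and 33 (inputs) and 70 and 55 (RIP), and its log2 fold change of 0.94 (SE 0.48) had an edgeR adjusted p of 0.228. Without input replicate 1 it was 1.39 with an edgeR adjusted p of 0.0355, the single member called higher there. Mrpl44, which has a fold like that of ribonuclease III, had 1.77 and 1.92 CPM in the inputs and 1.90 and 2.45 CPM in the RIP, a log2 fold change of 0.24 (SE 0.43, edgeR adjusted p = 0.758). Mrpl17 had 3.09 and 3.32 CPM against 4.08 and 2.91 CPM, a log2 fold change of 0.13 (SE 0.39, edgeR adjusted p = 0.865). For both, the libraries of the groups overlapped.

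The other five lay just below 0 in the fit. Mrpl12, the stalk protein that contacts translation factors and also binds the mitochondrial RNA polymerase, had 6.80 and 4.02 CPM in the inputs and 4.32 and 4.61 CPM in the RIP, and a log2 fold change of -0.28 (SE 0.41). Mrps25 had 7.10 and 7.46 CPM against 6.02 and 6.90 CPM, a log2 fold change of -0.17 (SE 0.35). Mrpl9, Mrpl50 and Mrpl35 had log2 fold changes of -0.22 (SE 0.39), -0.24 (SE 0.48) and -0.26 (SE 0.41). Mrpl50 went opposite ways in the replicates, with log2 ratios of 0.74 and -1.11. When scaled by library size alone, all 5 lay between 0.069 and 0.14, so no direction can be given for them.

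Compared per length, the members spanned a wide range of levels in the input. On the deposited FPKM scale the means (± SD, n = 2) were highest for Mrpl34 (15.3 ± 8.44), Mrps21 (12.1 ± 0.0907), Mrpl42 (7.80 ± 1.90), Mrpl54 (5.36 ± 2.89) and Mrpl20 (4.72 ± 0.703). An SD of 2 libraries is a rough guide only, and no test was run between members. By these spreads Mrps21 lay above Mrpl42, Mrpl54 and Mrpl20, and Mrpl42 and Mrpl34 above Mrpl20, while Mrpl34 was not apart from Mrps21, Mrpl42 or Mrpl54, nor Mrpl54 from Mrpl42 or Mrpl20. Mrps36, the next, at 4.50 ± 1.35, was not apart from Mrpl20 or Mrpl54. The lowest were Mrps30 (0.391 ± 0.117), Mrpl17 (0.357 ± 0.0507) and Mrps10 (0.285 ± 0.0203), of which Mrps30 was not apart from either of the others. The lengths behind these FPKM values follow the union of all annotated exons, which for Mrpl33 is 7326 nt against 478 nt for its principal transcript. Taken as CPM per kb of principal transcript instead, Mrpl42 led at 49.8 ± 7.86, followed by Mrps21 (21.4 ± 1.72), Mrpl34 (18.3 ± 11.4), Mrpl33 (18.2 ± 2.16) and Mrpl20 (12 ± 0.740), and Mrpl17 had the lowest mean at 0.439 ± 0.0225. On this scale Mrpl42 was apart from the next 4, Mrpl34 was apart from none of the other 3 of those, and Mrps21 and Mrpl33 were not apart from each other. In the RIP the same scale gave 7.45 ± 0.739 for Mrpl42, still the highest member, and 0.479 ± 0.113 for Mrpl17. Ranked by input FPKM, the upper 26 members had a median log2 fold change of -1.70 with 17 lower, the middle 26 a median of -1.20 with 5 and the bottom 26 a median of -0.75 with 4. Among all tested genes 9.78% were lower. The same input libraries are the denominator of the fold change, so that ranking and fold change are not independent, and no conclusion is drawn from this order.

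The members' fold changes went with transcript length. Principal transcripts of the members had a median of 1302 nt (range 418 to 7300 nt), against 3183 nt for the other protein-coding genes tested, and coding sequences a median of 585 nt against 1425 nt. Across the 78 members the log2 fold change had a Spearman rho of 0.558 and a Pearson r of 0.514 (against log length) with transcript length, and across 11875 other protein-coding genes a rho of 0.486 and an r of 0.498. The points are genes of the same 4 libraries and not independent replicates. The 26 shortest members, 418 to 1018 nt, had a median log2 fold change of -1.86 with 14 lower. The next 26, up to 1849 nt, had a median of -1.02 with 7 lower, and the 26 longest, from 1962 nt, a median of -0.78 with 5 lower. Of all tested genes, 9.78% were lower.

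Set beside other protein-coding genes of like length, the short members had medians near those of the rest, and the longer ones had lower medians. Below 800 nt, 16 members had a median of -2.08 with 75% lower, and 351 other genes a median of -2.24 with 65% lower. From 800 to 1200 nt, 19 members had a median of -1.20 with 26.3% lower, against -1.35 and 37.8% of 621 genes. From 1200 to 2000 nt, 18 members had a median of -0.95 with 22.2% lower, against -0.56 and 13.3% of 1848 genes. From 2000 to 4000 nt, 16 members had a median of -1.09 with 31.2% lower, against 0.041 and 4.0% of 4845 genes. From 4000 nt, 9 members had a median of -0.62 and none lower, against 0.47 and 1.02% of 4210 genes. These classes hold under 20 members each, and no test was run between them. They follow the annotated principal transcript, and which isoform the cells held was not measured. Some long members have short coding sequences, as Mrpl51 with 387 nt of 3427 nt, so a shorter isoform would place them in another class.

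**Figure D3:**
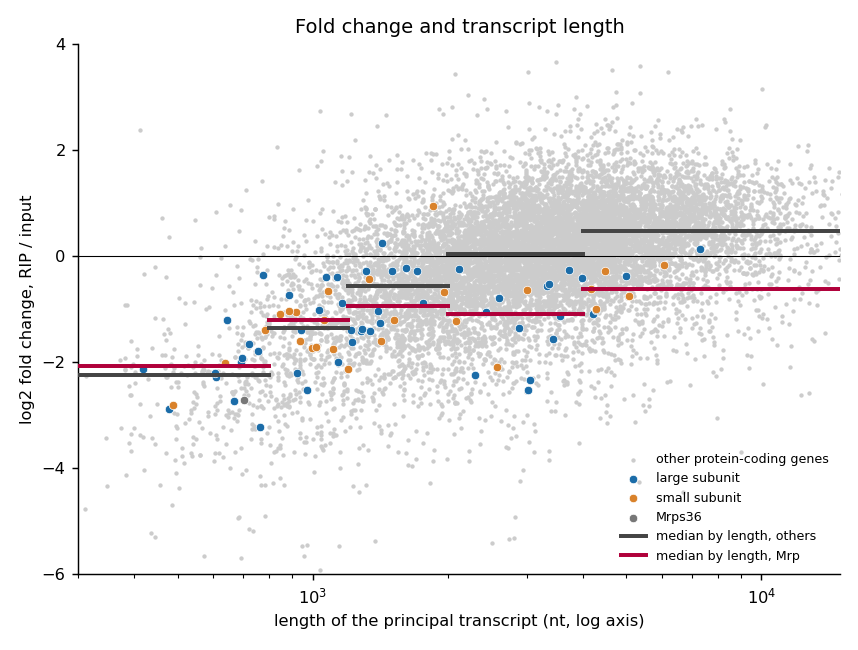
Log2 fold change, RIP over input, against the length of the principal transcript (nt, log axis) for Mrp transcripts (colored points) and other protein-coding genes (grey, 93 of them outside the axes). The bars are medians by length class, at -2.08 for members and -2.24 for other genes below 800 nt, and at -1.09 and 0.041 from 2000 to 4000 nt.

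With smooth trends on transcript length and GC content taken out of all genes, which was added once the data had been seen, the members' median was -0.31 against 0.06 for all genes. Then 53 of 78 lay below 0 and 2 were lower, where 1.75% of all genes were. Those 2 were Mrpl11 (-2.29) and Mrpl32 (-2.13). These calls set the remaining fold change against the SE of the edgeR fit, so the uncertainty of the trends is not counted. Mrpl20, lowest in the main fit, then stood at -1.45 and Mrps21 at -0.38, and neither was called.

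By Spearman correlation, other features of the members went less with the fold change than transcript length did (0.558). By Pearson correlation, coding length and input FPKM came close to the 0.514 of transcript length in size. Spearman correlations over the 78 members were 0.451 with coding length, 0.430 with 3′ UTR length, -0.473 with input FPKM, which holds length in its denominator, 0.116 with the number of exons and -0.0831 with GC content. The input is also the denominator of the fold change, so the value for input FPKM does not relate independent measures. The corresponding Pearson values on the same measures, on a log scale, were 0.509, 0.395, -0.512, 0.147 and -0.0743. GGACT, searched on the mRNA strand only, since the libraries concern RNA, occurred in 63 of 78 members (80.8%), against 92.6% of other protein-coding genes. Members with at least 1 match had a median log2 fold change of -1.04, and the 15 without any a median of -1.72. The number of matches, which grows with length, had a Spearman rho of 0.467 with the fold change (Pearson r 0.42). Per kb the correlation with the fold change was 0.119 (Pearson r 0.146). The median density was 1.0 per kb in members and 1.05 per kb in other protein-coding genes. Below 800 nt, 62.5% of the members and 47.6% of the other genes held a match, and from 2000 to 4000 nt 93.8% and 95.1% did.

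The replicates gave the same direction for most members. The log2 ratio of RIP to input had a median of -1.46 in replicate 1, with 74 of 78 below 0, and of -0.93 in replicate 2, with 68 below 0. Across members the replicates' ratios had a Spearman rho of 0.692 and a Pearson r of 0.671. The smaller drop in replicate 2 went with its input, which was lower than input replicate 1 in 64 of 78 members, by a median of -0.44 on the log2 scale against -0.17 for all tested genes. The RIP libraries differed by a median of 0.069 in the members.

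**Figure D4:**
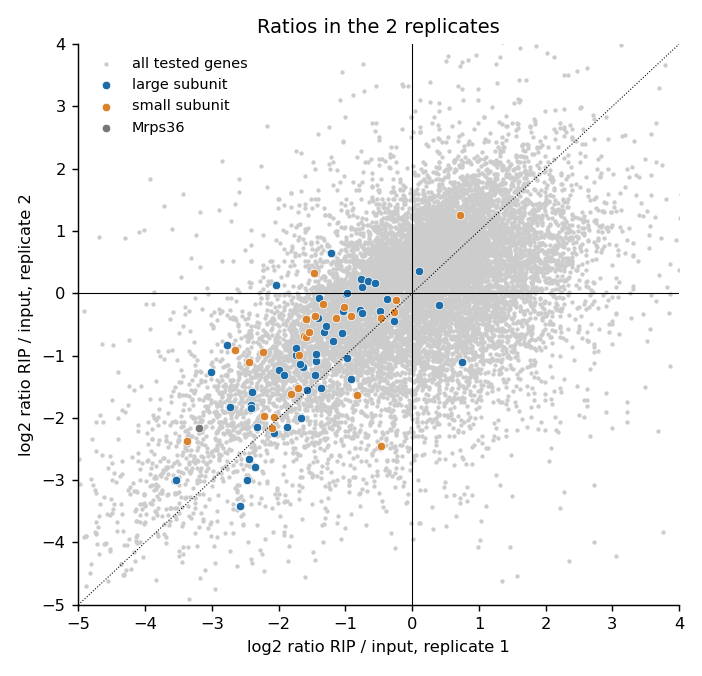
Log2 ratio of RIP to input in replicate 1 (x axis) and replicate 2 (y axis) for Mrp transcripts (colored) and all tested genes (grey, 602 outside the axes), with the dotted line marking equal ratios. Members gather at the lower left, 74 below 0 in replicate 1 and 68 in replicate 2, with Mrps27 above 0 in both.

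The mitoribosome proteins that carry other names gave mixed values. Of 5 such genes, 2 were lower and none higher, with a median log2 fold change of -0.95. Over all tested genes, 9.78% were lower and 3.48% higher. Aurkaip1, a small subunit protein also known for binding Aurora kinase A, had 8.03 and 3.87 CPM in the inputs and 1.58 and 1.33 CPM in the RIP, a log2 fold change of -2.03 (SE 0.48, edgeR adjusted p = 0.0278), and of -1.41 without input replicate 1. Chchd1, a small subunit protein, had 6.14 and 6.64 CPM against 2.14 and 2.37 CPM, a log2 fold change of -1.5 (SE 0.38, edgeR adjusted p = 0.0349), which turned to 0.75 with no call once the trends on length and GC content were taken out. Gadd45gip1, in the large subunit, and Ptcd3, an RNA-binding protein of the small subunit, had log2 fold changes of -0.95 (edgeR adjusted p = 0.147) and -0.82 (edgeR adjusted p = 0.292). Without input replicate 1 Ptcd3 was called lower (-1.29), and without input replicate 2 Gadd45gip1 was (-1.08). Dap3, a GTP-binding protein of the small subunit, had 5.73 and 2.45 CPM against 4.20 and 4.57 CPM, a log2 fold change of 0.10 (SE 0.47, edgeR adjusted p = 0.907), but without input replicate 1 it was called higher at 0.84.

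Genes that work with the mitoribosome did not share the members' values. Of 18 tested translation factors and regulators, 2 were lower (11.1%) and 1 higher (5.56%), with a median of -0.095. These shares are near the 9.78% lower and 3.48% higher of all tested genes. Slirp and Lrpprc, whose proteins form 1 complex that keeps mitochondrial mRNAs stable, lay at opposite ends. The other lower one, Coa3 (-1.64), which acts in the making of cytochrome c oxidase, was named after its value was seen. Slirp had 5.99 and 7.46 CPM in the inputs and 0.832 and 0.956 CPM in the RIP, a log2 fold change of -2.91 (SE 0.42, edgeR adjusted p = 0.00379). Lrpprc had 0.749 and 2.21 CPM in the inputs and 7.84 and 8.06 CPM in the RIP, a log2 fold change of 2.42 (SE 0.53, edgeR adjusted p = 0.0215), which became 1.84 with input replicate 1 left out and 3.39 with input replicate 2 left out. The initiation factor Mtif2 stood at -1.65 (SE 0.56, edgeR adjusted p = 0.0865) and Mief1, an outer membrane protein of mitochondrial fission, at 1.09 (SE 0.38, edgeR adjusted p = 0.0926). Without input replicate 1, both passed, at -2.13 and 1.51, and without input replicate 2 Mief1 also passed, at 0.76.

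Of 20 mitochondrial tRNA synthetases and amidotransferase subunits, 1 was lower (5.0%, against 9.78% of all genes) and none higher (against 3.48%), with a median of 0.45. The lower one was Gatc, a small subunit of the amidotransferase that completes glutaminyl-tRNA, at 18.6 and 13.0 CPM in the inputs and 6.18 and 4.03 CPM in the RIP, a log2 fold change of -1.63 (SE 0.39, edgeR adjusted p = 0.0293). Yars2 came next at -0.65 (SE 0.61, edgeR adjusted p = 0.525). Lars2 and Vars2, which load leucine and valine, stood at 1.20 (SE 0.39, edgeR adjusted p = 0.0807) and 1.21 (SE 0.40, edgeR adjusted p = 0.084). Both passed with either input left out, Lars2 at 1.01 and 1.42 and Vars2 at 1.14 and 1.28. Of the genes above, the calls of Aurkaip1, Chchd1, Slirp, Lrpprc and Gatc were lost with either RIP library left out, as were those of all members. With the trends on length and GC content taken out, the calls of Aurkaip1 (-1.05), Gatc (-1.04) and Lrpprc (2.17) were lost as well. Of 29 tested assembly factors 2 were lower (6.9%) and 1 higher (3.45%), near the shares of all genes, with a median of 0.042. Named after their values were seen, these were Clpp (-2.04), a mitochondrial protease subunit, Ndufab1 (-1.45), the mitochondrial acyl carrier protein, and Nsun4 (1.68), a methyltransferase of mitochondrial rRNA. With the same trends out, these 3 stood at -0.85, -1.4 and 1.96 and Coa3 at -0.16, none of them called. The median principal transcripts of these 3 lists were longer than the members' 1302 nt, at 2606 nt for the translation factors, 2868 nt for the synthetases and 2014 nt for the assembly factors.

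Transcripts of 2 other groups of short mRNAs, chosen for comparison after the data were seen, had lower medians than the members. Over all tested genes 9.78% were lower and 3.48% higher. Of 79 tested cytosolic ribosomal protein transcripts 68 were lower (86.1%), with a median log2 fold change of -2.61. Of 75 nuclear-encoded respiratory chain transcripts 54 were lower (72.0%) and 1 higher (1.33%), with a median of -2.10. The higher one was Uqcrfs1 (1.56), the Rieske iron-sulfur protein of complex III, named after its value was seen. Their median principal transcripts were 860 nt and 865 nt long. With the trends on length and GC content taken out the medians were -1.0 and -0.50, against -0.31 for the Mrp transcripts.

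**Figure D5:**
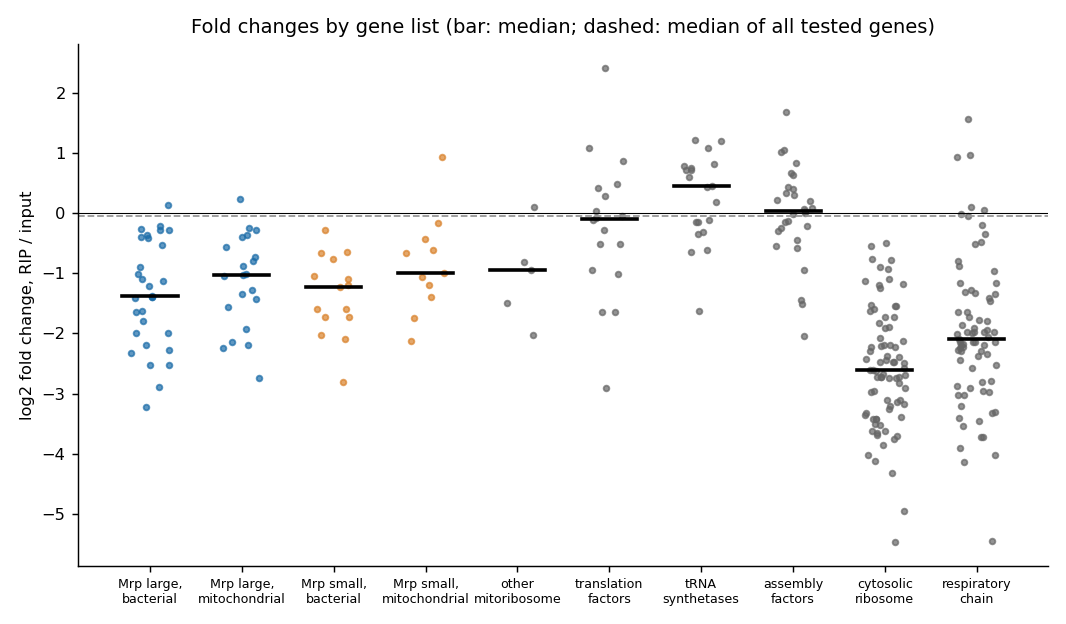
Log2 fold changes, RIP over input, of single genes (points) by list, with black bars at the list medians and a dashed line at the median of all tested genes. The 4 classes of Mrp transcripts have medians from -1.39 to -1.0, between those of cytosolic ribosomal proteins (-2.61) and of mitochondrial tRNA synthetases (0.45).

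The members lie on 17 chromosomes, and 42 of the 78 overlap another annotated gene. For 14 of them the overlapping gene had at least as many counts, and since the strand setting of the counting is not stated, reads of the partners may not be fully told apart in these. Mrps11 and Mrpl46, a pair of members on opposite strands that was picked for its overlap after the values were seen, had log2 fold changes of -1.20 and -0.40. The 3 annotated pseudogenes of members in the table together held 25 counts over the 4 libraries, against 37245 for the members, and were not tested.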

How the data were processed

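Libraries were made with a stranded kit from RNA of P0 mouse retina before (input) and after (RIP) pulldown with anti-YTHDF2, 2 of each. The authors deposited counts per gene, not normalized, and FPKM values scaled by the authors for gene length and library size. The submitters' processing notes name GRCm38, STAR 2.5 and HTSeq; the strand setting is not given in the sources used here. Groups and replicate numbers came from the labels.

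Counts were tested in R 4.3.3 with edgeR 4.0.16 (filterByExpr with minimum count 10 and minimum total 15, TMM, glmQLFit and glmQLFTest, RIP against input without a block), and p-values were adjusted over all 13632 tested genes by the Benjamini-Hochberg method. SEs were computed as the log2 fold change over the square root of F. Lengths, GC content and sequences came from the principal transcript of GENCODE M21 (best APPRIS rank, then CCDS, complete ends and length). CPM per kb of that transcript were computed from TMM-scaled CPM. The fits were tested on simulated data before use.

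Per the series' design text a replicate comprises both an input and a pulldown, which pairs libraries of equal number. Deviations of replicate 2 from replicate 1 in the inputs and in the RIP correlated at -0.0364 (Spearman) and -0.0348 (Pearson) across all tested genes, at -0.0661 and -0.054 across the 6858 genes with 50 or more counts throughout, and at 0.0692 and 0.0563 across the members.

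Alternatives were DESeq2 1.42.0, other scalings (library size, upper quartile, TMM without small RNA, rRNA and mitochondrially encoded genes), the replicate block, no filter, a filter of 10 counts in each library, the exact test of edgeR, log2(FPKM + 0.1) and log2(FPKM + 1) in limma 3.58.1 where the mean FPKM reached 0.1, each library left out, and trends on gene length and expression taken out (mgcv 1.9.3, basis size 8). Trends on principal transcript length and GC content were added after the data were seen. Where trends were taken out, calls set the remaining fold change against the SE of the edgeR fit, without the uncertainty of the trend.

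The members, lists and tests were chosen with earlier results of these data known. Genes were named by a rule: the 8 lowest and 8 highest log2 fold changes, the 5 highest and 3 lowest input FPKM means, Mrps18a, Mrps18b, Mrps18c, Mrpl58, Mrps30, Mrps36 and Mrpl12, any member called higher or not tested, the mitoribosome proteins with other symbols, and the 2 lowest and 2 highest translation factors and tRNA synthetases. Mrps11, Mrpl46 and the genes said to be named after their values were seen lie outside it.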

Additional observations from a re-analysis of the deposited data

How the results depend on the processing

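The median of the members relative to all tested genes was below 0 in all 18 alternatives. It was -1.15 in the full fit, -0.47 with limma on log2(FPKM + 1), -0.70 and, with the block, -0.68 with the trend on gene length and expression taken out, -0.37 with or without the block with the trend on transcript length and GC content taken out, and -0.89 to -1.47 with a library left out. The count of lower members, 26 (9.78% of all genes lower in the same fit), became 15 by library size alone (7.32%), 15 with no filter (3.81%), 13 and (block) 14 with the first trend out (3.05% and 6.01%), 2 and (block) 4 with the second out (1.75% and 3.94%), and 0 to 53 with a library left out (0.756% to 19.8%). The count of depleted members, 41, became 13 on log2(FPKM + 1), 19 and (block) 21 with the first trend out, 10 and (block) 11 with the second out, and 21 to 54 with a library left out. No member was called higher except Mrps27 without input replicate 1 and with the first trend out and the block, 1 each, so that the range without a library was 0 to 1. Enriched members, 0 in the full fit (9.43% of all genes), numbered 1 by library size alone, 1 with no filter, 1 on log2(FPKM + 0.1), 3 with the first trend out (3 with the block) and 3 with the second out (2 with the block). The shares of all genes that were depleted or enriched in these alternatives are not given here, so those counts cannot be set against a background. The fits without a RIP library hold 1 RIP library, assumed to vary like the others. The cause of the changes in these fits and in the other alternatives was not tested.

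Equal replicate numbers were used as a pairing in the replicate block. It gave 31 lower members (11.8% of all genes), 26 of them shared with the fit without it, a median difference of -1.17, and changed no other call among the counts.

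The log2 fold changes of members near 0 turned sign. By library size alone Mrpl12 was 0.069, Mrpl35 0.10, Mrpl50 0.12, Mrpl9 0.12 and Mrps25 0.14. On log2(FPKM + 0.1) these 5 were 0.030, 0.020, 0.078, 0.059 and 0.079, and on log2(FPKM + 1) 0.019, 0.013, 0.049, 0.038 and 0.043. With a library left out, Mrpl12 ranged from -0.61 to 0.15, Mrpl50 from -0.68 to 0.4, Mrpl9 from -0.48 to 0.1, Mrps25 from -0.21 to 0.016, Mrpl17 from -0.047 to 0.43 and Dap3 from -0.39 to 0.84. With the trend on gene length and expression taken out (with the block in parentheses), Mrpl12 was 0.68 (0.70), Mrpl50 0.39 (0.42), Mrpl9 0.17 (0.16), Mrpl17 -0.11 (-0.19), Dap3 -0.11 (-0.050) and Chchd1 0.10 (0.087). With the trend on transcript length and GC content taken out, Mrpl12 was 0.51 (0.55), Mrpl50 0.52 (0.49), Mrpl9 0.43 (0.45), Mrpl17 -0.15 (-0.29), Mrps18c 0.21 (0.22), Mrps18a 0.70 (0.77), Mrps18b 0.53 (0.45), Dap3 -0.32 (-0.24) and Chchd1 0.75 (0.76). Mrps18c and Chchd1 were called lower in the full fit. Depth limits the members with the fewest counts, down to 9 in a RIP library.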
